A study of Rattus norvegicus with 6 samples.

Results

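Fragments of 5 mitochondrial tRNAs, those for serine (anticodon TGA), aspartate (GTC), lysine (TTT), glycine (TCC) and arginine (TCG), were described in small RNA libraries of rat muscle. Members were all distinct sequences aligned to the mature or precursor form of these tRNAs, taken from the deposited alignments, and without an alignment to a nuclear tRNA. There were 6834 such sequences of 77567 in all, of which 35487 were mitochondrial, and 3 sequences were set aside because they also matched a nuclear tRNA. The members comprised 165 sequences of mt-Ser-TGA, 494 of mt-Asp-GTC, 1942 of mt-Lys-TTT, 1380 of mt-Gly-TCC and 2853 of mt-Arg-TCG.

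The study compared 3 experimental with 3 control libraries, grouped by their titles. All 6 samples were labelled as muscle of Lewis rats aged 6 to 8 weeks, and the series concerns tRNA fragments as markers of acute rejection after a transplant of composite tissue such as a limb. How the experimental samples were treated is not stated, and a further label and the design text speak of mouse skin. Whether replicates are different animals is not stated. A p-value here is therefore set against the spread of these 6 libraries alone, and that spread may be technical. At 1 base of mt-Asp-GTC, described below, every control read over it differed from the reference while most experimental reads did not. Only tRNA reads are given, so no marker of muscle or of another cell type could be checked, and fewer cells of a type cannot be told apart from less RNA per cell.

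Mitochondrial DNA is transcribed as long RNAs in which tRNAs lie between the messenger and ribosomal RNAs. RNase P cuts such a transcript before a tRNA and the mitochondrial RNase Z cuts after it, which frees the neighbouring messenger RNAs, and CCA is then added to the tRNA's 3' end. In the usual mammalian gene order, the serine tRNA lies on the strand opposite to the other 4, beside the aspartate tRNA and the end of the oxidase subunit I gene. The aspartate, lysine, glycine and arginine tRNAs lie just before the genes of oxidase subunit II, ATP synthase subunit 8 (ATP8), NADH dehydrogenase subunit 3 (ND3) and NADH dehydrogenase subunit 4L (ND4L). The bases before a tRNA are called its leader here and those after it its trailer, so a trailer of these 4 tRNAs is also the start of a messenger RNA.

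The mature tRNAs with their added CCA are printed with the anticodon in capitals, as the reference against which all positions are counted from 1 at the 5' end. They lie on chromosome M at 6865 to 6933 (mt-Ser-TGA, on the other strand), 6937 to 7004 (mt-Asp-GTC), 7693 to 7756 (mt-Lys-TTT), 9383 to 9450 (mt-Gly-TCC) and 9800 to 9867 (mt-Arg-TCG), as the files give these positions. The precursor sequences hold 40 further bases on each side.
mt-Ser-TGA: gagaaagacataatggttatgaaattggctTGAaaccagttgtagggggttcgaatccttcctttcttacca
mt-Asp-GTC: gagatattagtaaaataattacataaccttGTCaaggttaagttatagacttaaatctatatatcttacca
mt-Lys-TTT: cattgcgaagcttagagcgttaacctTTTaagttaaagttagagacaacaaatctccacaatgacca
mt-Gly-TCC: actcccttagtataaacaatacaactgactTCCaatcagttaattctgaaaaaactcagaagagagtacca
mt-Arg-TCG: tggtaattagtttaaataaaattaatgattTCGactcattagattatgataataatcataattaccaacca

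Most of the single fragments that fell begin at the borders between tRNA and trailer, so the last 10 tRNA bases and the first 25 trailer bases are printed for 4 tRNAs, with capitals from the base at which most trailer reads began. That base was trailer base 2 for mt-Asp-GTC, mt-Lys-TTT and mt-Arg-TCG, and trailer base 1 for mt-Gly-TCC. The capitals of mt-Asp-GTC and mt-Lys-TTT open with ATG.
mt-Asp-GTC border: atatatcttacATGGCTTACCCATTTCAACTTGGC
mt-Lys-TTT border: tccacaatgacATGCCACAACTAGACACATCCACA
mt-Gly-TCC border: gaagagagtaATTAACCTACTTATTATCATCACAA
mt-Arg-TCG border: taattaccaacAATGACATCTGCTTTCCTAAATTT

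The libraries held 876494, 1927269 and 1866227 tRNA-aligned reads in the experimental group and 550004, 740627 and 316990 in the control group. The 5 tRNAs took 15859, 5983 and 17347 of these reads in the experimental and 3058, 17902 and 5816 in the control libraries. That was 1.81%, 0.310% and 0.930% of tRNA reads in the experimental libraries, against 0.556%, 2.42% and 1.83% in the controls. The groups overlapped (exact two-sided permutation test, p = 0.4). Of all tRNA reads, 136632, 47354 and 154794 were mitochondrial in the experimental and 30884, 117375 and 55627 in the control libraries. This part varied between libraries, and values per tRNA read move with it. The 5 tRNAs took 11.6%, 12.6% and 11.2% of mitochondrial reads in the experimental and 9.90%, 15.3% and 10.5% in the control libraries, again with overlap. No class of position was compared per mitochondrial read. The smallest p that 3 against 3 libraries allow is 0.1, so no share compared here by this test could pass 0.05.

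mt-Arg-TCG gave most of the reads. It held 71.1%, 73.0% and 70.5% of the reads of the 5 tRNAs in the experimental libraries, against 50.5%, 49.4% and 63.1% in the controls. The experimental libraries all lay above the controls (exact permutation test, p = 0.1). Reads inside the tRNA, divided by the library's tRNA reads (RPM, so that all libraries have one depth) and by the tRNA length in bases, ordered the tRNAs as mt-Arg-TCG, mt-Gly-TCC, mt-Lys-TTT, mt-Asp-GTC and mt-Ser-TGA by group mean. By this measure mt-Arg-TCG averaged 71.6 ± 44.2 in the experimental and 74.3 ± 50.8 in the control libraries (SD, n = 3 each). mt-Gly-TCC averaged 11.6 ± 8.59 in the experimental and 15.2 ± 8.70 in the control libraries (SD, n = 3 each). mt-Lys-TTT averaged 6.17 ± 4.70 and 7.93 ± 4.23, mt-Asp-GTC 1.74 ± 0.835 and 2.86 ± 1.44, and mt-Ser-TGA 1.30 ± 1.06 and 1.44 ± 0.589, each given for the experimental and then the control libraries (SD, n = 3 each). Within each single library the order was the same, except in experimental replicate 1, where mt-Ser-TGA (2.41) lay just above mt-Asp-GTC (2.40). The SDs are spreads between libraries, and the same libraries gave all 5 tRNAs, so the SDs do not measure how firm the order is. Between groups, the values of each tRNA overlapped.

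The sum of all reads of a tRNA was tested together with the sums of all other tRNAs, 69 in total, by limma voom with Benjamini-Hochberg adjustment. No sum of the 69 passed an adjusted p of 0.05 (0% called), and 6 had an unadjusted p under 0.05. mt-Lys-TTT had 2435, 503 and 2187 CPM (normalised counts at a common depth) in the experimental and 1330.5, 8567 and 3326 in the control libraries, a log2 fold change of -1.19 ± 0.896 (SE; adjusted p = 0.625). mt-Gly-TCC had 1425, 297 and 1588 CPM in the experimental and 730.3, 3543 and 1703 in the control libraries, a log2 fold change of -0.79 ± 0.802 (SE; adjusted p = 0.683). The groups overlapped in both tRNAs. The log2 fold changes of the sums of mt-Ser-TGA, mt-Asp-GTC and mt-Arg-TCG were -0.22, -0.21 and -0.05, and each turned positive without experimental replicate 2 (0.38, 0.03 and 0.67) or control replicate 2 (0.19, 0.38 and 0.51), and that of mt-Arg-TCG also without control replicate 3 (0.19). Among the other 17 mitochondrial tRNAs, 6 sums had positive and 11 negative log2 fold changes, with a median of -0.40 and a range from -1.02 (mt-Ser-GCT) to 1.55 (mt-Glu-TTC).

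The sums whose log2 CPM over the 6 libraries ran most alike were those of other mitochondrial tRNAs. The 3 nearest to mt-Arg-TCG were mt-Leu-TAA, mt-Ala-TGC and mt-Cys-GCA, with Pearson correlations of 0.99, 0.98 and 0.95. mt-Lys-TTT and mt-Gly-TCC had mt-Leu-TAG as the nearest sum (0.99 for each), mt-Asp-GTC had mt-Ala-TGC (0.99) and mt-Ser-TGA had mt-Thr-TGT (0.98). These are descriptions over 6 libraries that share their scaling.

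The place of the reads within a tRNA was compared next. Shares were taken of all reads of a tRNA in a library, over the leader, the 5' junction (reads that cross the start of the tRNA), 5' fragments (that start at the 5' end), internal fragments, 3' fragments (that end at the 3' end, with or without CCA), the 3' junction and the trailer. Such shares sum to 100%, so a lower trailer share raises the others. Over the 5 tRNAs, the trailer held 10.3%, 9.29% and 8.99% of reads in the experimental libraries, against 37.3%, 36.9% and 24.2% in the controls. Every experimental library was below every control (exact permutation test, p = 0.1). Shares of 27 classes were tested, and the smallest adjusted p over them was 0.18. The leader held 30.1%, 18.0% and 20.2% in the experimental and 17.7%, 23.2% and 12.4% in the control libraries, and here the groups overlapped.

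**Figure D1:**
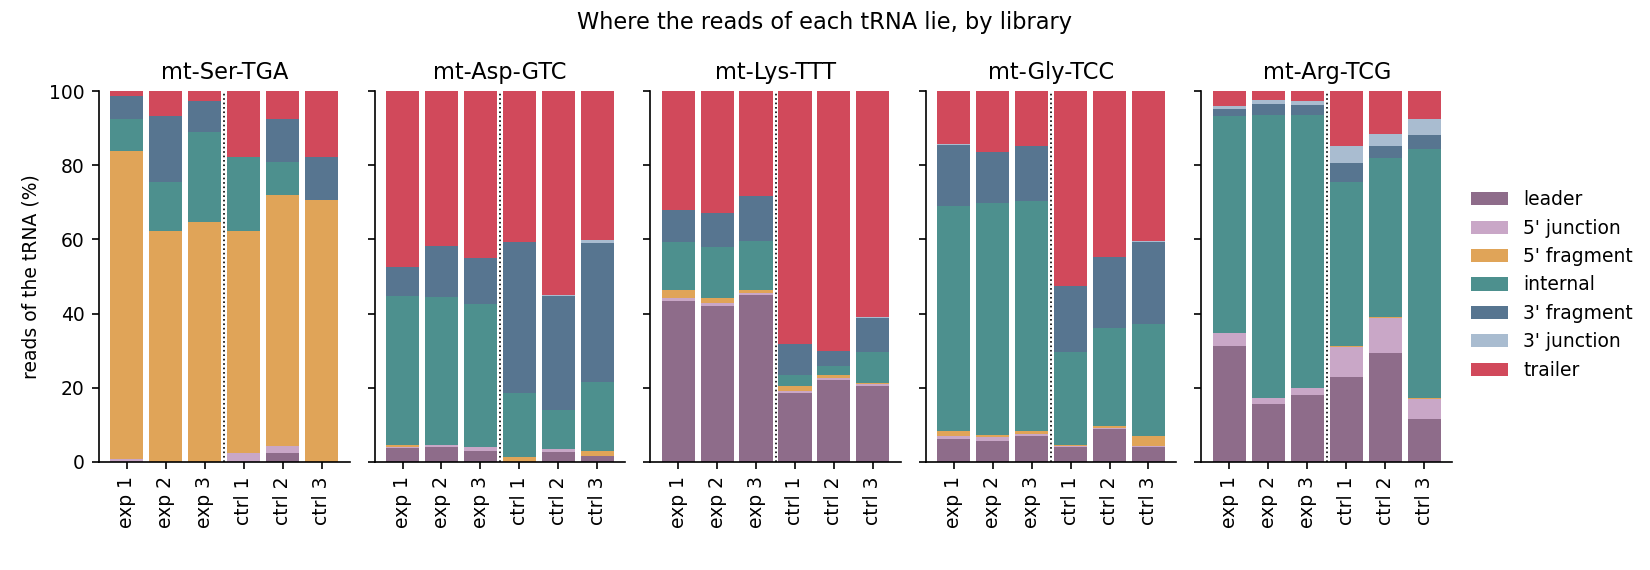
Share of each tRNA's reads (y axis, percent) in each class of position, for the 3 experimental libraries left of the dotted line and the 3 control libraries right of it, with 1 panel per tRNA. The trailer share of mt-Lys-TTT lay between 28.2% and 32.8% in the experimental libraries and between 61.1% and 70.0% in the controls.

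mt-Lys-TTT had the largest trailer share in the control libraries. Its trailer, the start of the ATP8 messenger RNA in the usual gene order, held 32.0%, 32.8% and 28.2% of its reads in the experimental libraries, against 68.2%, 70.0% and 61.1% in the controls, with no overlap (exact permutation test, p = 0.1, adjusted p = 0.18). In RPM, the trailer had 954, 147 and 391 in the experimental and 1116, 5683 and 2517 in the control libraries, again without overlap (exact permutation test, p = 0.1). Nearly all trailer reads of mt-Lys-TTT shared 1 first base. Trailer base 2, at position 7758, began 88.2%, 90.1% and 89.0% of them in the experimental libraries and 96.1%, 96.0% and 97.0% in the controls.

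The mt-Lys-TTT leader, the end of the oxidase subunit II messenger RNA in the usual gene order, showed the reverse order. It held 43.3%, 42.1% and 44.9% of mt-Lys-TTT reads in the experimental libraries, against 18.7%, 22.1% and 20.4% in the controls. Leader reads that ended 20 bases before the tRNA made up 10.1%, 11.5% and 10.3% of all mt-Lys-TTT reads in the experimental libraries, against 0.778%, 3.96% and 1.07% in the controls. Leader reads that ended on the very last leader base, where RNase P cuts, made up 7.62%, 8.22% and 7.99% in the experimental and 5.89%, 4.89% and 8.88% in the control libraries. The groups did not overlap for the leader as a whole and for the end 20 bases upstream (exact permutation test, p = 0.1 for each), and they overlapped for the end at the border (exact permutation test, p = 0.4). In RPM the leader as a whole overlapped as well, with 1290.4, 189 and 624 in the experimental and 305, 1792 and 839 in the control libraries.

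Internal reads were the largest class of mt-Gly-TCC in the experimental libraries and trailer reads the largest in the controls. Internal reads were 60.9%, 62.5% and 62.3% of its reads in the experimental libraries, against 25.1%, 26.6% and 30.3% in the controls. The trailer, which opens the ND3 messenger RNA in the usual gene order, held 14.2%, 16.5% and 14.7% in the experimental libraries, against 52.6%, 44.7% and 40.5% in the controls. The groups were apart in both classes (exact permutation test, p = 0.1, adjusted p = 0.18). In RPM the internal reads overlapped, with 1062, 166 and 627 in the experimental and 225, 892 and 640 in the control libraries. The trailer stayed apart in RPM, with 248, 43.6 and 148 in the experimental and 473, 1499 and 855 in the control libraries. Within the internal reads of mt-Gly-TCC, those that started at position 39 were 13.1%, 14.7% and 16.3% in the experimental libraries, against 4.84%, 5.75% and 5.42% in the controls (exact permutation test, p = 0.1). Starts at position 19 were 15.1%, 14.7% and 14.2% in the experimental libraries, against 10.5%, 12.3% and 9.36% in the controls, again without overlap. Starts at position 26 were 11.6%, 8.15% and 9.22% in the experimental and 10.5%, 12.6% and 11.3% in the control libraries, with overlap (exact permutation test, p = 0.3). Reads that ended at position 56 were 11.5%, 9.61% and 12.7% of all mt-Gly-TCC reads in the experimental libraries, against 2.83%, 3.42% and 3.59% in the controls (exact permutation test, p = 0.1).

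mt-Asp-GTC differed between groups inside the tRNA and little in its total trailer share. Internal reads held 40.3%, 39.8% and 38.5% of its reads in the experimental libraries, against 17.1%, 10.5% and 18.7% in the controls. Its 3' fragments held 7.80%, 13.8% and 12.6% in the experimental libraries, against 40.8%, 30.8% and 37.4% in the controls. The groups were apart in both (exact permutation test, p = 0.1, adjusted p = 0.18), with 76 to 501 reads a library behind them. In RPM its internal reads overlapped, with 136, 40.5 and 103 in the experimental and 23.6, 63.5 and 82.0 in the control libraries. Its 3' fragments stayed apart in RPM, with 26.2, 14.0 and 33.8 in the experimental and 56.4, 186 and 164 in the control libraries. Its trailer, the start of the oxidase subunit II messenger RNA in the usual gene order, held 47.5%, 41.8% and 44.9% in the experimental and 40.8%, 55.1% and 40.3% in the control libraries, with overlap (exact permutation test, p = 1). Within that trailer, base 2 began 70.0%, 78.0% and 74.2% of the reads in the experimental libraries, against 87.1%, 84.2% and 94.6% in the controls. The groups were apart in this share (exact permutation test, p = 0.1). Reads that started at position 28, in the anticodon stem, made up 60.5%, 48.7% and 49.2% of internal mt-Asp-GTC reads in the experimental libraries, against 23.1%, 25.5% and 19.2% in the controls (exact permutation test, p = 0.1). The shares of starts at 28 rest on few reads in the controls, 3 of 13, 12 of 47 and 5 of 26. In the experimental libraries they were 72 of 119, 38 of 78 and 95 of 193.

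mt-Arg-TCG had the smallest trailer shares of the 4 tRNAs on its strand. The trailer held 3.89%, 2.38% and 2.66% of its reads in the experimental libraries, against 14.7%, 11.6% and 7.61% in the controls, with no overlap (exact permutation test, p = 0.1, adjusted p = 0.18). The 3' junction held 0.789%, 1.14% and 0.990% in the experimental libraries, against 4.67%, 3.25% and 4.09% in the controls. The 5' junction held 3.41%, 1.69% and 1.86% in the experimental libraries, against 8.17%, 9.46% and 5.40% in the controls. Both were without overlap. Of the 3' junction, 88 of 89, 50 of 50 and 121 of 121 experimental reads had CCA after base 67. In the controls these were 69 of 72, 273 of 287 and 149 of 150. Of the 5' junction, 366 of 385, 72 of 74 and 210 of 227 experimental reads ended in A in place of tRNA base 1. In the controls these were 125 of 126, 816 of 836 and 196 of 198. Most reads of both classes, described below, thus do not show an uncut border. Internal reads held 58.6%, 76.2% and 73.6% in the experimental and 44.4%, 43.1% and 67.3% in the control libraries, with overlap (exact permutation test, p = 0.2).

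mt-Ser-TGA had few reads, 34 to 153 a library, and was mostly 5' fragments, unlike the other 4 tRNAs, in which that class held at most 2.69% in any library. These 5' fragments held 83.2%, 62.2% and 64.7% of its reads in the experimental and 60.0%, 67.8% and 70.6% in the control libraries, with overlap (exact permutation test, p = 0.8). Its reads that started at position 1 ended on average at position 24.8, 26 and 24.1 in the experimental libraries, against 21.7, 22.8 and 22.7 in the controls (exact permutation test, p = 0.1). The read from 1 to 26 was the commonest.
mt-Ser-TGA 1 to 26: gagaaagacataatggttatgaaatt
It had 48.4, 10.6 and 24.7 CPM in the experimental and 7.75, 27.3 and 16.8 in the control libraries, with overlap (log2 fold change by limma voom 0.51 ± 0.960, SE; adjusted p = 0.735).

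**Figure D2:**
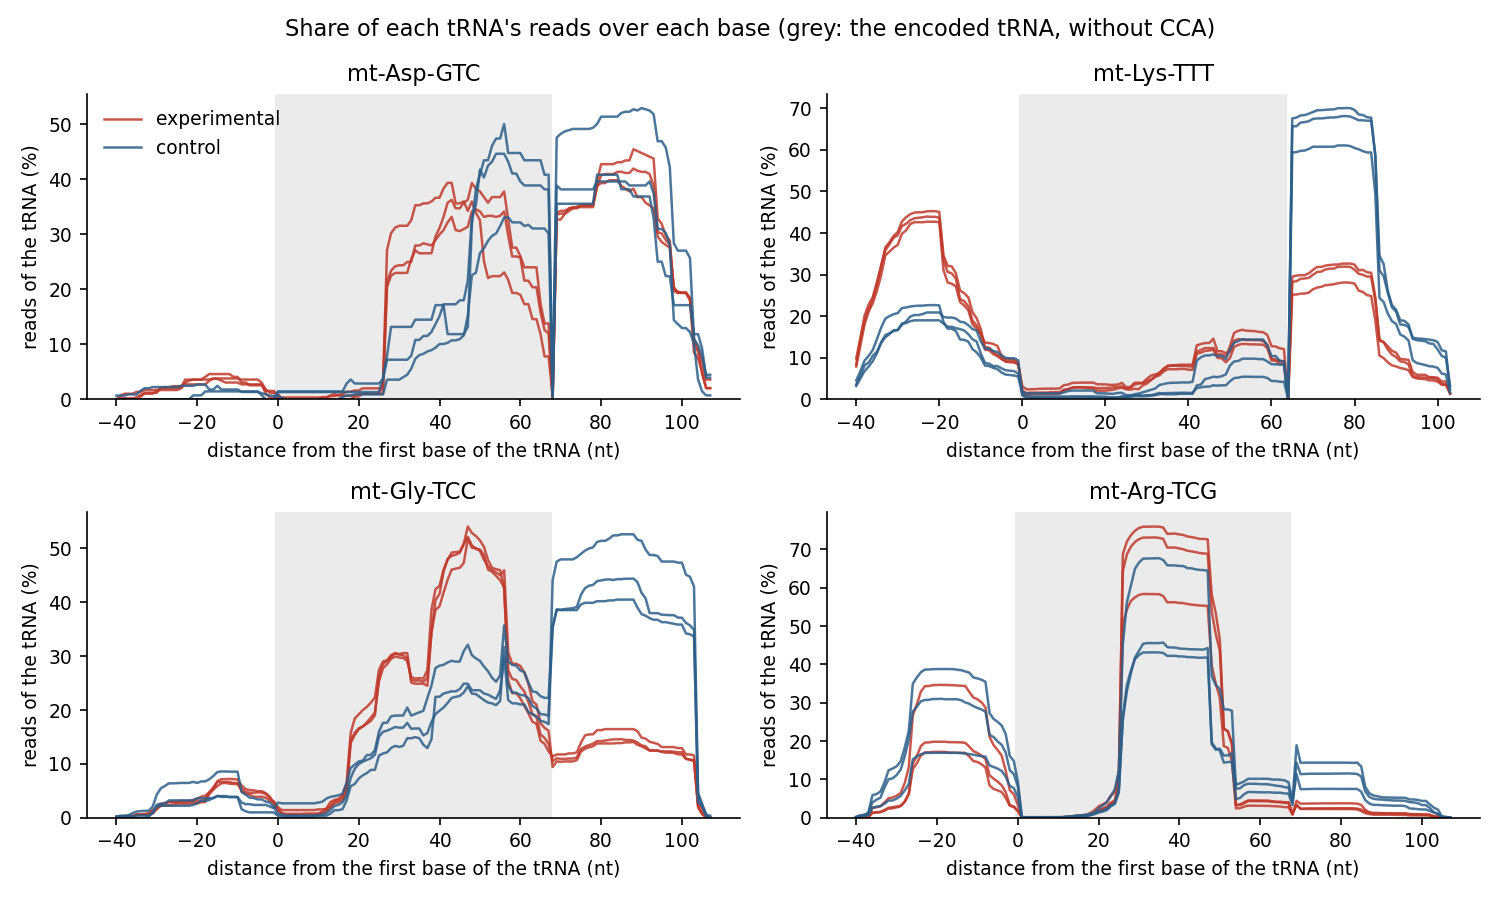
Percent of a tRNA's reads (y axis) that lie over each base, by the distance from the tRNA's first base in nt (x axis), with 1 line per library, red for experimental and blue for control, and the encoded tRNA in grey. From trailer base 1 to 39, the lines of mt-Lys-TTT and mt-Gly-TCC were lower in all 3 experimental libraries than in all 3 controls, while they crossed at the last base drawn, and added CCA bases are not drawn.

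Single fragments were tested next, each distinct sequence on its own and together with all others of the series. Of the 6834 members, 138 passed the filter on low counts, and they held 59.3% to 67.4% of the member reads of a library. A fragment could pass through the group in which it was high, so counts over those that passed describe them and not all members, 3931 of which were seen as 1 read. By limma voom at an adjusted p under 0.05, 3 members rose in the experimental libraries and 24 fell, which is 2.17% and 17.4% of the 138. Over all 2226 fragments tested, 416 rose (18.7%) and 170 fell (7.64%). The median log2 fold change was -1.01 over the 138 members and 0.21 over all fragments. Of the 138 members, 10 were higher and 39 lower without overlap of the groups, against 26.1% and 14.6% of all fragments tested. The fit gave all fragments 1 pooled spread. When every fragment was instead given a spread of its own, 0 of the 138 members were called by limma voom, against 1.03% of all fragments tested (0.674% that rose and 0.359% that fell). Of the members, 33 then had an unadjusted p under 0.05, and the smallest adjusted p was 0.0675. The number that fell was 8 without experimental replicate 3, 12 without experimental replicate 2, 7 without control replicate 2 and 47 without control replicate 1, and the number that rose was 1 without experimental replicate 1, 11 without experimental replicate 2 and 5 without control replicate 2. Tests and calls over the whole series moved too. Without control replicate 1, 216 members were tested and 951 of 3149 fragments were called. Without control replicate 2 these were 164 and 679 of 3078. Without experimental replicates 1, 2 and 3 they were 146 and 524 of 2387, 191 and 640 of 2769, and 180 and 466 of 2630.

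Trailers made up 19 of the 24 members that fell, out of 33 trailer fragments tested, with a median log2 fold change of -2.47 over those 33. Those that fell were 57.6% of the 33, against 7.64% of all fragments tested. Many are versions of 1 trailer that share a first base, so they are not separate observations. The others that fell were 1 leader fragment, 2 of the 5' junction, 1 internal and 1 of the 3' junction. The trailers named here all begin at the capitals of the borders above, and the most abundant of each tRNA is printed to show how far it ran.
mt-Lys-TTT trailer 2 to 22: atgccacaactagacacatcc
mt-Gly-TCC trailer 1 to 36: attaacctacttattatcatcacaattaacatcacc
mt-Arg-TCG trailer 2 to 18: aatgacatctgctttcc
The first of these had 119, 57.8 and 74.6 CPM in the experimental libraries, against 289, 1671 and 604 CPM in the controls. All experimental libraries were below all controls, and the fragment fell by 3.04 ± 0.879 on the log2 scale (SE; limma voom adjusted p = 0.00436), with an adjusted p of 0.0853 without control replicate 2. The longer mt-Lys-TTT trailer from 2 to 39 had 21.6, 11.6 and 16.8 CPM in the experimental libraries, against 103, 555 and 131 CPM in the controls (log2 fold change -3.58 ± 0.906, SE; adjusted p = 0.000969). In all, 12 of the 17 mt-Lys-TTT trailers tested fell (70.6%, against 7.64% of all fragments tested), and they share a first base.

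The mt-Gly-TCC trailer from 1 to 36 had 49.3, 15.4 and 36.1 CPM in the experimental libraries, against 246, 576 and 341 CPM in the controls. The groups did not overlap, and the fragment fell by 3.57 ± 0.885 on the log2 scale (SE; limma voom adjusted p = 0.00075). It was called with each of the 6 libraries left out in turn. The same trailer with C36T, a changed last base, had 13.8, 5.78 and 13.2 CPM in the experimental and 25.2, 75.4 and 89.5 CPM in the control libraries (log2 fold change -2.38 ± 0.935, SE; adjusted p = 0.0432), and that call was lost without any one library except control replicate 1. Of the 4 mt-Gly-TCC trailers tested, 3 fell, against 7.64% of all fragments tested.

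The mt-Arg-TCG trailers, which open the ND4L messenger RNA in the usual gene order, were less abundant. That from 2 to 18 had 89.98, 16.4 and 25.3 CPM in the experimental libraries, against 112, 351 and 171 CPM in the controls (log2 fold change by limma voom -2.50 ± 0.889, SE; adjusted p = 0.0237), with adjusted p of 0.15, 0.147 and 0.139 without experimental replicate 2, experimental replicate 3 or control replicate 2. That from 2 to 37 had 6.06, 1.93 and 6.01 CPM in the experimental libraries, against 36.8, 44.2 and 64.3 CPM in the controls (log2 fold change -3.36 ± 0.989, SE; adjusted p = 0.00511). The groups were apart in both, and 4 of the 10 mt-Arg-TCG trailers tested fell, against 7.64% of all fragments tested. Of the mt-Asp-GTC trailers, 2 were tested and neither passed. The more abundant, from 2 to 30, had 15.6, 8.67 and 13.2 CPM in the experimental and 3.87, 50.7 and 50.3 CPM in the control libraries (log2 fold change -0.86, adjusted p = 0.535).

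**Figure D3:**
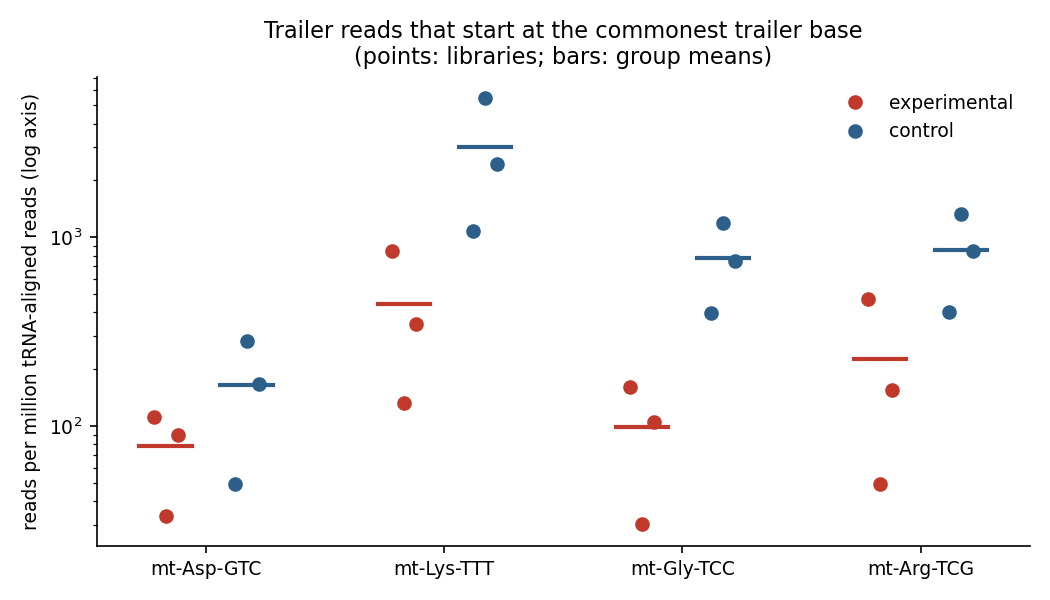
Trailer reads in RPM of tRNA-aligned reads (y axis, log scale) that start at the commonest trailer base of 4 tRNAs (x axis), 1 point per library, experimental in red left of control in blue, with bars at the group means. The groups were apart for mt-Lys-TTT and mt-Gly-TCC and overlapped for mt-Asp-GTC and mt-Arg-TCG.

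Internal reads of mt-Arg-TCG started most often at position 27, in the anticodon stem. Of all mt-Arg-TCG reads, 42.6%, 59.0% and 53.1% started there in the experimental libraries, against 18.2%, 20.1% and 32.8% in the controls. Among internal reads these were 72.7%, 77.4% and 72.2% in the experimental libraries, against 41.0%, 46.7% and 48.8% in the controls, with no overlap (exact permutation test, p = 0.1). Those that end at 48, 51 and 54 are printed because their 3' ends are what differed.
mt-Arg-TCG 27 to 48: gatttcgactcattagattatg
mt-Arg-TCG 27 to 51: gatttcgactcattagattatgata
mt-Arg-TCG 27 to 54: gatttcgactcattagattatgataata
Of the reads that start at 27, those that end at 51 were 25.6%, 35.2% and 32.8% in the experimental libraries, against 6.41%, 8.94% and 9.88% in the controls. Those that end at 48 were 25.2%, 17.7% and 18.8% in the experimental libraries, against 49.8%, 46.4% and 34.3% in the controls. Those that end at 54 were 22.4%, 21.3% and 23.5% in the experimental libraries, against 31.7%, 31.4% and 41.1% in the controls. Each of these 3 ends separated the groups (exact permutation test, p = 0.1, adjusted p = 0.12 over 6 ends), and ends at 53 overlapped (exact permutation test, p = 0.8). The mean last position did not separate them, at 50.8, 50.99 and 50.98 in the experimental and 50.6, 50.5 and 51.3 in the control libraries (exact permutation test, p = 0.7).

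The fragment from 27 to 51 had 953, 764 and 1125 CPM in the experimental libraries, against 34.9, 194 and 316 CPM in the controls. Its lowest experimental value was above the highest control, and it rose by 2.85 ± 0.887 on the log2 scale (SE; limma voom adjusted p = 0.00848), with an adjusted p of 0.144 without control replicate 1. The other 2 members that rose also start at 27 and end at 50. That without a mismatch had 250.03, 223 and 224 CPM in the experimental libraries, against 3.87, 67.6 and 78.3 CPM in the controls (log2 fold change 2.99, adjusted p = 0.00717). The fragment from 27 to 54 had 850, 466 and 823 CPM in the experimental and 157, 663 and 1242 CPM in the control libraries, and that from 27 to 48 had 861, 360.3 and 601 CPM in the experimental and 236, 846 and 996 CPM in the control libraries. Both overlapped between groups (log2 fold changes 0.44 and -0.03, adjusted p = 0.749 and 0.982). The shorter internal fragment from 30 to 48 went the other way, with 55.4, 25.05 and 41.5 CPM in the experimental libraries, against 92.9, 222 and 336 CPM in the controls. It fell by 2.29 ± 0.888 on the log2 scale (SE; adjusted p = 0.0398), and the call was lost without experimental replicate 2, experimental replicate 3, control replicate 2 or control replicate 3 (adjusted p from 0.112 to 0.141).

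**Figure D4:**
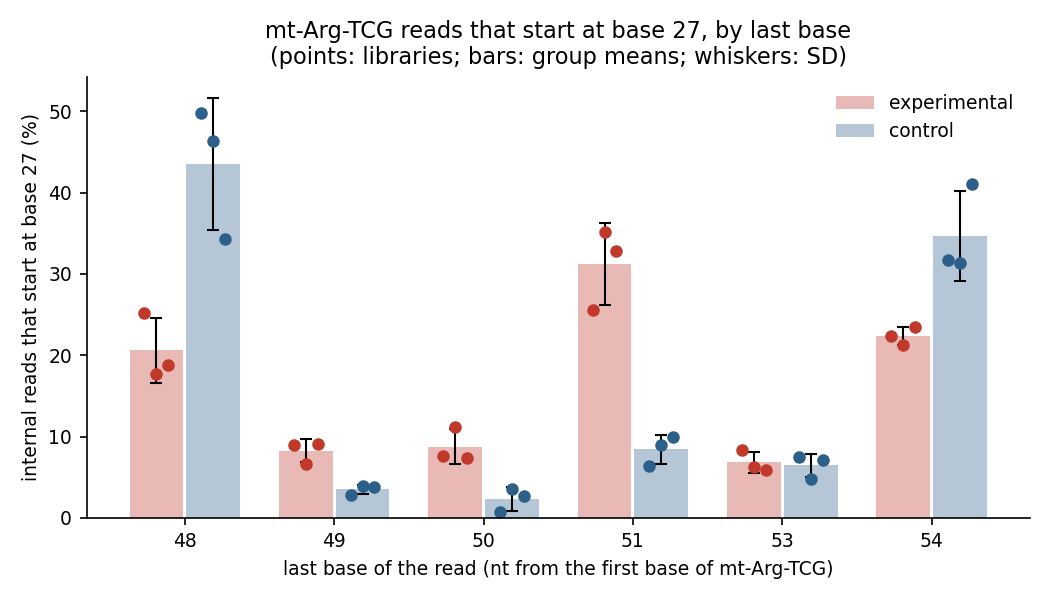
Percent of internal mt-Arg-TCG reads that start at base 27 (y axis), by their last base (x axis), with points for libraries, bars for group means and whiskers for the SD (n = 3), experimental left of control. The experimental points were all above the controls at 51 and all below them at 48 and 54.

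At the 5' border of mt-Arg-TCG, reads that run 1 base into the tRNA carried A in place of its first base T in nearly every case (T1A). Among reads that end on tRNA base 1, T1A was found in 95.8%, 97.3% and 95.02% in the experimental and 100%, 99.4% and 99.5% in the control libraries. Such a read equals the leader followed by an A that the reference does not hold at that place. The commonest is printed with that base in capitals.
mt-Arg-TCG leader -26 to 1: aaaaggactagaatgaacagaataatA
Reads with T1A at their end were 3.25%, 1.65% and 1.72% of mt-Arg-TCG reads in the experimental libraries, against 8.10%, 9.23% and 5.34% in the controls, with no overlap (exact permutation test, p = 0.1). Of the leader reads that ended at or before tRNA base 1, they were 9.36%, 9.57% and 8.66% in the experimental libraries, against 26.2%, 23.8% and 31.6% in the controls (exact permutation test, p = 0.1). The read printed had 123, 26.01 and 39.7 CPM in the experimental and 58.1, 360 and 238 CPM in the control libraries (log2 fold change by limma voom -1.77 ± 0.886, SE; adjusted p = 0.126). The reads that start 28 and 32 bases before the tRNA and end with T1A passed the test (log2 fold changes -2.40 and -2.65, adjusted p = 0.0398 and 0.038), although the groups overlapped for the second. Both calls were lost without experimental replicate 2, experimental replicate 3 or control replicate 2, that of the first also without control replicate 3 and that of the second also without experimental replicate 1. A further member that passed was the leader fragment from 29 to 8 bases before the tRNA, with 12.1, 0 and 6.01 CPM in the experimental and 11.6, 27.3 and 22.4 CPM in the control libraries (log2 fold change -2.58, adjusted p = 0.0475), lost without experimental replicate 2, experimental replicate 3, control replicate 2 or control replicate 3.

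At the 3' end of mt-Arg-TCG, CCA followed either the last encoded base, position 68, or the base before it. A read of the second kind aligns to the precursor with A68C, because the next trailer bases happen to match the rest of CCA. Both ends are printed, with base 68 in capitals where it is present.
mt-Arg-TCG full end: aattaccaAcca
mt-Arg-TCG short end: aattaccacca
Of the mt-Arg-TCG reads with a whole CCA, the short end was found in 88 of 266 (178 with the full end), which is 33.1% (95% Wilson interval 27.7% to 38.9%), in experimental replicate 1, in 34.2% (27.04% to 42.3%) in replicate 2 and in 31.2% (26.8% to 36.0%) in replicate 3. In the control libraries it was 57.5% (48.6% to 65.98%), 60.4% (55.8% to 64.8%) and 56.0% (50.01% to 61.9%). The 3 experimental libraries lay close together and below the 3 controls (exact permutation test, p = 0.1). The fragment that starts at 54 with the short end had 24.2, 11.6 and 21.6 CPM in the experimental libraries, against 38.7, 117 and 165 CPM in the controls, and it fell by 2.29 ± 0.909 on the log2 scale (SE; limma voom adjusted p = 0.0464), a call lost without any one library except control replicate 1 (adjusted p from 0.0501 to 0.153).

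The CCA itself was compared by how many of its bases the reads at the 3' end held. Among reads at the 3' end of mt-Gly-TCC, the last base A was missing (2 added bases) in 45.1%, 31.7% and 57.4% in the experimental libraries, against 18.6%, 21.4% and 20.9% in the controls. For mt-Lys-TTT the same was seen in 31.5%, 24.1% and 38.9% in the experimental libraries, against 17.3%, 11.98% and 12.8% in the controls. The groups were apart in both tRNAs (exact permutation test, p = 0.1). For mt-Asp-GTC the values were 34.8%, 22.2% and 36.7% in the experimental and 25.8%, 26.1% and 34.6% in the control libraries (exact permutation test, p = 0.8), and for mt-Arg-TCG 6.28%, 5.47% and 7.41% in the experimental and 11.3%, 8.06% and 3.60% in the control libraries (exact permutation test, p = 0.7). Only reads that align to the mature tRNA were counted here, so the short-end reads of mt-Arg-TCG were left out. With a whole CCA these were 88, 50 and 121 reads in the experimental and 69, 273 and 149 in the control libraries. The mt-Arg-TCG values thus describe its full end alone. mt-Ser-TGA had few reads at its 3' end. The whole CCA was found in 5 of 8, 5 of 8 and 7 of 12 of them in the experimental libraries, against 13 of 14 and 3 of 4 in control replicates 2 and 3, and control replicate 1 had none, so the groups were apart on these few reads.

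Mismatches inside reads, leaving out 2 bases at each read end, were counted at 489 positions, and 4 of these reached 5% of reads in a group. The 4 were A68C of mt-Arg-TCG, described above, G42A of mt-Asp-GTC, and A9G of mt-Gly-TCC and of mt-Lys-TTT. G42A separated the groups most widely. It was carried by 7 of 107, 21 of 56 and 15 of 138 reads over position 42 in the experimental libraries, against 9 of 9, 42 of 42 and 19 of 19 in the controls. These are 6.54% (95% Wilson interval 3.20% to 12.9%), 37.5% (26.01% to 50.6%) and 10.9% (6.70% to 17.2%) in the experimental libraries, against 100% in each control library, with lower bounds of 70.1%, 91.6% and 83.2%. No control read counted over this position had the reference base, and most experimental reads did (exact permutation test, p = 0.1; the adjusted p over 489 positions was 1). A pair of deposited reads that differ only there is printed with base 42 in capitals.
mt-Asp-GTC 28 to 49 with G42A: cttgtcaaggttaaAttataga
mt-Asp-GTC 28 to 49 with the reference base: cttgtcaaggttaaGttataga

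The labels give 1 strain for all 6 samples. Whether the samples of both groups share 1 mitochondrial sequence was not tested, so in every comparison given here the experimental condition and a different origin of the samples cannot be told apart. An alignment holds at most 1 mismatch, so a read with G42A can carry no other difference from the reference. That applies to all control reads counted over position 42. The part of this limit in the lower internal share of mt-Asp-GTC in the controls was not tested. Among internal mt-Asp-GTC reads counted over position 42 with G42A, 4, 11 and 10 started at position 28 in the experimental and 3, 12 and 5 in the control libraries, and 3, 10 and 5 started elsewhere in the experimental and 6, 28 and 14 in the control libraries. Among those without it, 67, 26 and 81 started at 28 and 32, 9 and 38 elsewhere in the experimental libraries, and the controls had none of either.

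The other 2 positions had few reads. A9G of mt-Lys-TTT, at a position that is methylated in many mitochondrial tRNAs, was carried by 12 of 67, 3 of 14 and 1 of 33 reads in the experimental and 0 of 13, 1 of 40 and 1 of 5 reads in the control libraries, with overlap (exact permutation test, p = 0.4). A9G of mt-Gly-TCC was carried by 7 of 22, 0 of 3 and 0 of 14 reads in the experimental libraries and by none of 1, 11 and 18 reads in the controls. In the mt-Ser-TGA trailer, A13G was carried by 1 of 1, 3 of 3 and 1 of 2 reads in the experimental and by 8 of 8, 9 of 9 and 6 of 6 in the control libraries, so at this depth no difference between groups was detectable there.

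**Figure D5:**
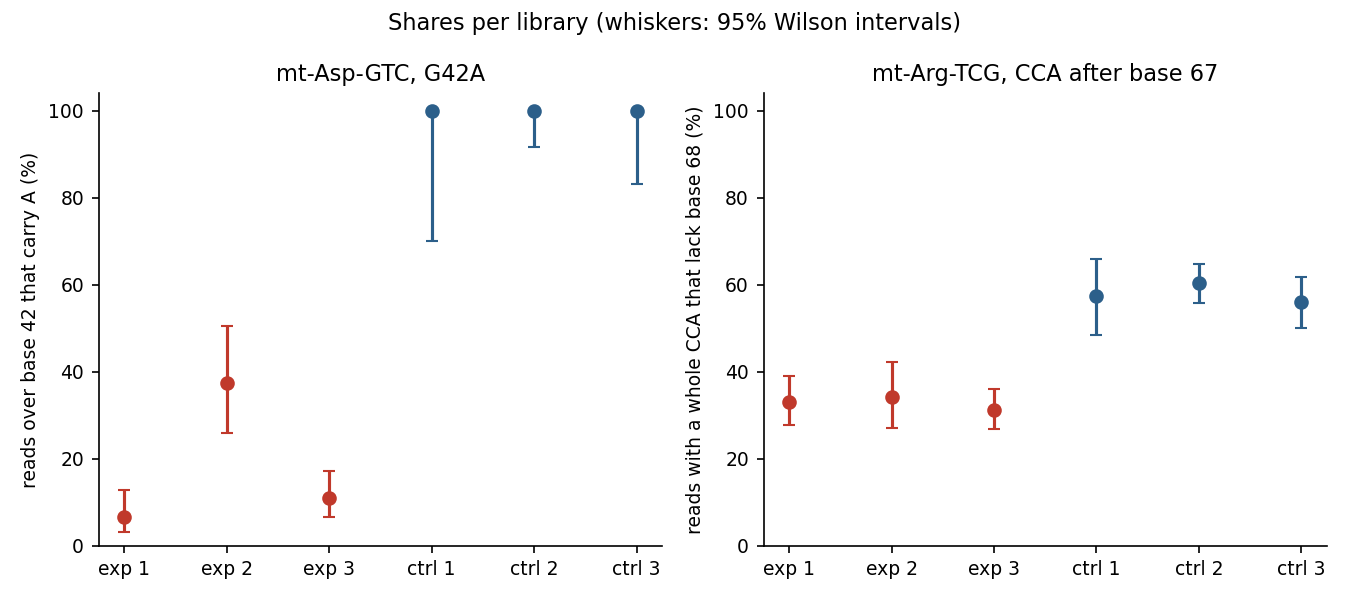
Percent of reads per library (y axis) with G42A over base 42 of mt-Asp-GTC (left) and with CCA directly after base 67 of mt-Arg-TCG among its reads with a whole CCA (right), with 95% Wilson intervals, experimental libraries left of controls. In both panels the experimental points were below all control points, and those of mt-Asp-GTC spread from 6.54% to 37.5%.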

How the data were processed

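The deposited table gives, per the file headers, raw read counts per distinct sequence and library, made by the authors, with each alignment to a mature (CCA added) or precursor tRNA. The counts of all 6834 members equalled those in the libraries' own alignment files. The aligner is not given in the sources used here. A mouse build, mm9, stands in the processing notes of the submitters, and positions are printed as in the files. Text lines (1812) are interleaved with the counts, so the columns were recorded as other and tested, in place of the planned count model, with limma 3.58.1 voom in R 4.3.3 (prior count 0.5) on the 2 groups without covariates, with Benjamini-Hochberg adjustment over all features and a threshold of 0.05.

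Each sequence was counted once. A fragment was tested if 3 libraries reached the CPM that 10 counts make in the median library and its counts summed to 15 or more. Scaling factors by the trimmed mean of M-values (trims 0.3 and 0.05) were 1.46, 0.562 and 0.939 in the experimental and 0.986, 1.10 and 1.19 in the control libraries. CPM are relative to kept reads times this factor. The spread had infinite prior degrees of freedom for fragments (SE 0.872 to 1.07) and 6.19 for sums, in which a sequence on several anticodons was split equally. Fits were tested on simulated data with a spread set in advance, not taken from these libraries, and with rises and falls in balance. Such a test cannot show whether calls with the pooled spread hold in these data. A class border allowed 1 position. Positions with mismatches needed 30 reads in each group and 5 in a library. Wilson intervals hold only the counting error, as reads copied by PCR are not separate molecules.

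Named fragments were the 4 most abundant places of each tRNA and up to 15 called in each direction with at least 20 CPM, with ends within 2 nt sharing a place. Members, lists and tests were chosen with earlier results of these data known. Alternatives were other scalings, filters, spreads and tests, a replicate block, other reads or borders, and each library left out.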

Additional observations from a re-analysis of the deposited data

How the results depend on the processing

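The count of members that rose (3) and fell (24) was 0 and 0 with each fragment's own spread and 0 and 10 with library totals. It was 26 and 60 with no low-count filter (2408 members tested), and 7 and 11 summed over mismatches (150 tested). With a 3-fold higher minimum (44 members tested) 13 fell. Over all fragments, rises and falls together were 586 of 2226 in the main fit, 23 of 2226 with own spreads and 342 of 2226 with library totals. They were 2091 of 28184 with no filter, 276 of 1350 summed over mismatches and 268 of 954 with the higher minimum. With one library left out the member rises ranged from 1 to 11 and the falls from 7 to 47. Calls over all fragments then ranged from 364 of 2960 to 951 of 3149. Whether replicate numbers pair the libraries is not stated. Deviations of same-numbered libraries had correlations of -0.31, -0.06 and 0.14 over fragments and -0.34, -0.62 and 0.40 over sums. With 3 libraries a group these values cannot settle it. A replicate block gave 3 rises and 15 falls, with 508 of 2226 fragments called. None of the 5 tRNA sums was called under any alternative run. The log2 fold change of the sum of mt-Asp-GTC was 0.0174 with the replicate block, and that of mt-Arg-TCG 0.0131 with limma trend and 0.42 on mature blocks only. With one library left out, those of the sums ranged from -0.66 to 0.38 (mt-Ser-TGA), -0.95 to 0.38 (mt-Asp-GTC) and -0.77 to 0.67 (mt-Arg-TCG). With exact matches only, differences in class share reversed to -5.06 points (mt-Ser-TGA 5' fragments), 0.83 (its trailer, whose reads nearly all carry A13G) and -2.37 (mt-Arg-TCG leader). With one library left out these and other uncalled differences ranged from -2.65 to 7.84 (mt-Ser-TGA 5' fragments), -3.23 to 4.20 (mt-Asp-GTC trailer) and -4.54 to 4.40 points (mt-Arg-TCG leader). The difference in mean first position of mt-Asp-GTC 3' fragments was -0.94 nt with each sequence counted once, and ranged from -0.155 to 0.847 with one library left out, while that of mt-Gly-TCC ranged from -0.0734 to 1.46. Among named fragments without a call, the log2 fold change of mt-Arg-TCG 27 to 48 was 0.26 with no filter. With one library left out it ranged from -0.65 to 0.37, that of mt-Ser-TGA 1 to 26 from -0.23 to 1.11, that of mt-Asp-GTC trailer 2 to 26 from -0.86 to 0.13 and that of mt-Arg-TCG 27 to 54 from -0.38 to 0.79. Where a cause is not given, the cause was not tested. The differences in trailer and internal share of mt-Lys-TTT, mt-Gly-TCC and mt-Arg-TCG kept their direction under every alternative run. So did those in short ends and in ends at 49 to 51, which were chosen after the data were seen. Likewise chosen were the single start positions, the mt-Lys-TTT end upstream of its border, the mt-Gly-TCC end inside the tRNA and the T1A shares. Their p-values were not adjusted for that choice. The coverage minimum of 100 left G42A without a value, since 70 control reads were counted there. Count models (edgeR, DESeq2) were not run. Depth limits mt-Ser-TGA and mt-Asp-GTC most, where 95% intervals of a class share reach 14.7 and 10.8 points on either side.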
